A study of Homo sapiens with 26 samples.

Results

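The genes described here encode short structural RNAs that RNA polymerase III makes: the RNA subunits of RNase P (RPPH1) and RNase MRP (RMRP), the 7SK RNA (RN7SK) and the vault RNAs (VTRNA1-1, VTRNA1-2, VTRNA1-3 and VTRNA2-1). Of the 7 listed symbols, 5 had a row of their own on the array, out of 18417 genes with such a row. RN7SK is named only on a row it shares with LINC01517, and no row is named VTRNA2-1, so both are not analysed here. The list was chosen by measured values as well as by name: earlier results of these arrays had shown RPPH1 among the genes most changed in siDNMT3A and VTRNA1-1 in siDNMT3L. Those 2 pairs of gene and depletion are therefore given as values without a test in every comparison that uses those groups. Control arrays were not withheld. Other tests of RPPH1 and VTRNA1-1 that use a control group, also between the control groups, may therefore share arrays with the choice of these genes.

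All arrays were hybridised with total RNA from NCCIT, an established human embryonal carcinoma line derived from a germ cell tumour, after transfection of siRNA. There were 26 Affymetrix arrays in 13 groups of 2. Both control groups, siNTC-1 and siNTC-2, received control siRNA. Single depletions targeted DNMT1 (siDNMT1), DNMT3A (siDNMT3A), DNMT3B (siDNMT3B) or DNMT3L (siDNMT3L). Combined depletions targeted DNMT1 with DNMT3A (siD1+3A), DNMT1 with DNMT3B (siD1+3B), DNMT1 with both (siD1+3A+3B), DNMT3A with DNMT3B (3A+3B), either of these with DNMT3L (3A+3L, 3B+3L), or DNMT3A, DNMT3B and DNMT3L together (3A+3B+3L). All groups share the line, the medium with fetal bovine serum and the transfection reagent; no untransfected group was analysed here. The labels do not say whether duplicates were separate cultures, so a p-value here rests on how far duplicate arrays differ, and that spread may be technical. A depletion leaves part of the target's mRNA: relative to the control group of the same side (defined in the next paragraph), DNMT1 ranged from 37.4% to 59.5%, DNMT3A from 67.0% to 78.5%, DNMT3B from 50.3% to 99.4% and DNMT3L from 68.3% to 79.7%, and the target was called lower in 4 of 4, 6 of 6, 5 of 6 and 4 of 4 groups. Of the embryonal carcinoma markers (such as POU5F1 and NANOG), 7 of 10 were measured and all 7 lay above the median gene, while none of the measured fibroblast, endoderm, trophoblast and blood markers did.

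The arrays fell on 2 sides of the leading principal component of the 12083 rows without a gene symbol, which held 35.3% of their variance. One side held siNTC-1, siDNMT1, siDNMT3B and siDNMT3L (8 arrays, here the siNTC-1 side), and the other held siNTC-2 and the other 8 depletions (18 arrays, here the siNTC-2 side). No label names a batch, and the sides were read from the values, which makes them no groups of the design; what separates them was not tested. Because both control groups received control siRNA yet lie on different sides, each depletion is given against the mean of both control groups, against each control group alone, and against the control group of its own side. Comparisons of different depletions with 1 control group share its arrays.

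RNase P trims the leader from precursor tRNAs, and RNase MRP, which shares most of its protein subunits, takes part in processing of ribosomal RNA. Vault RNAs are carried in part by vaults, large ribonucleoprotein particles, and are also bound by other RNA-binding proteins. RPPH1, RMRP and RN7SK are driven by promoters that lie before the gene, with an upstream octamer, a SNAPc site and a TATA box, whereas vault RNA genes also carry promoter boxes inside the transcribed part. DNMT1 copies methylation onto newly made DNA, DNMT3A and DNMT3B add new methylation, and DNMT3L, which has no catalytic activity itself, assists them.

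RPPH1 lies on chromosome 14 (a gene of 341 bases), RMRP on chromosome 9 (270 bases), and VTRNA1-1 (98 bases), VTRNA1-2 (88 bases) and VTRNA1-3 (88 bases) in 1 cluster on chromosome 5. The arrays hold a measured protein-coding gene directly beside RPPH1 (PARP2, which makes a poly(ADP-ribose) polymerase of DNA repair) and beside RMRP (CCDC107), so the stretch before each of these neighbours is shown, as the DNA that lies between the RNA gene and the protein-coding gene or reaches into the RNA gene. The sequences are RefSeq's, build GRCh38.p14, 250 bases up to the start of each neighbour on the plus strand: chr14:20343385-20343634 before PARP2, which overlaps the RPPH1 gene, and chr9:35658042-35658291 before CCDC107, which does not overlap RMRP. Capitals mark the octamer ATTTGCAT and the TATA letters TATAA, on either strand. By symbol, 0 of the 5 RNA genes matched the RefSeq promoter table.
PARP2: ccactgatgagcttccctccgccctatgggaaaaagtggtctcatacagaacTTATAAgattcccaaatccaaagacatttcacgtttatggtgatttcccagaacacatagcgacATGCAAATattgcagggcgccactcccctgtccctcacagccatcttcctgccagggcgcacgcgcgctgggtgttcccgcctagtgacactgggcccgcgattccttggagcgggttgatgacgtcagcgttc
CCDC107: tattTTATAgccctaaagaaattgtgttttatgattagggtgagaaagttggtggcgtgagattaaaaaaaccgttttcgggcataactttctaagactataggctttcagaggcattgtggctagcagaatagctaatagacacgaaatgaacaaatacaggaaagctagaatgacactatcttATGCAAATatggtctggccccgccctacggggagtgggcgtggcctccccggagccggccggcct
Both windows held the octamer on the strand opposite to the protein-coding gene. The PARP2 window held TATAA on both strands, in letters that overlap, and the CCDC107 window held it on the opposite strand. Of 35116 RefSeq windows of the same 250 bases, 1.63% held the octamer, 18.9% held TATAA and 0.49% held both. The windows held 14 and 10 CpG, beside a median of 11. A match of letters describes the window and is neither a site nor a cause.

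Values are the deposited log2 levels, and a difference of 1 on this scale is 2-fold. Levels of different genes come from different probes and are not set against each other. RPPH1 had the lowest values in siNTC-1 (8.97 and 9.08 on replicates 1 and 2), and the other siNTC-1-side groups were siDNMT3B with 9.26 and 9.43, siDNMT3L with 9.43 and 9.49 and siDNMT1 with 9.52 and 9.62. On the siNTC-2 side RPPH1 read 10.40 on both siNTC-2 arrays, 10.65 and 10.59 in 3B+3L, 10.60 and 10.76 in 3A+3B, 10.74 and 10.84 in siD1+3A+3B, 10.87 and 10.76 in siD1+3A, and 10.90 and 10.80 in siD1+3B. The highest groups were 3A+3L with 10.81 and 11.02, siDNMT3A with 11.28 and 11.22, and 3A+3B+3L with 11.35 and 11.26. Every array of the siNTC-2 side lay above every array of the siNTC-1 side for this gene, and within each side the control group lay lowest, apart from its neighbour in the order. From 3B+3L up to 3A+3L neighbouring groups overlapped, and siDNMT3A and 3A+3B+3L overlapped each other but no other group. The group means spanned 2.28, a 4.86-fold range, and the median SD of a duplicate was 0.07 (n = 2). In such bulk RNA, fewer cells that make an RNA and less of it per cell cannot be told apart.

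RMRP varied least, with group means spanning 0.83. It was lowest in siNTC-1 (11.49 and 11.47), followed by siDNMT3B (11.79 and 11.85), siNTC-2 (11.88 and 11.87), siDNMT1 (11.86 and 11.95) and siDNMT3L (11.98 and 11.94). In 7 of the 8 depletions of the siNTC-2 side the arrays lay between 12.01 and 12.23 and neighbouring groups overlapped, while siD1+3B stood apart at the top (12.33 and 12.29). The widest duplicate of RMRP was 3A+3L, with an SD of 0.13 (n = 2).

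VTRNA1-1 had the widest range, 2.60 or 6.08-fold between group means, but the top of that range is siDNMT3L, where the gene was chosen. The next group, siDNMT3B, lay 2.08 above siNTC-2, the lowest group, beside a span of 2.28 for RPPH1. The order of VTRNA1-1 also differed from that of RPPH1. VTRNA1-1 was highest in siDNMT3L (11.15 and 11.21), siDNMT3B (10.66 and 10.65) and siDNMT1 (10.15 and 10.59), with siNTC-1 at 9.95 and 10.08. On the siNTC-2 side it was 9.92 and 10.24 in siD1+3B, 9.99 and 9.90 in 3A+3B+3L, 9.70 and 9.61 in 3A+3L, and 9.63 and 9.66 in siD1+3A. The lower groups were 3A+3B with 9.38 and 9.40, 3B+3L with 9.30 and 9.41, siDNMT3A with 9.06 and 9.45, siD1+3A+3B with 9.29 and 9.20, and siNTC-2 with 8.73 and 8.43. siDNMT3L and siDNMT3B each stood apart from the next group, and siNTC-2 lay below all other groups. Within each side the control group was again the lowest, although siNTC-1 lay above 7 of the 8 depletions of the other side by its mean.

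VTRNA1-2 was lowest in siNTC-2 (9.61 and 9.62), then in 3B+3L (10.08 and 10.03), both apart from the rest. It was highest in siD1+3B (10.87 and 10.91) and siDNMT1 (10.71 and 10.87), followed by siD1+3A (10.58 and 10.55). The other 8 groups, from both sides and with siNTC-1 (10.32 and 10.42) among them, lay between 10.29 and 10.46 and overlapped from neighbour to neighbour. This gene was therefore not ordered by side, and its group means spanned 1.27.

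VTRNA1-3 was lowest in siNTC-1 (8.08 and 8.12). The other siNTC-1-side arrays lay between 8.12 and 8.47 in siDNMT1, siDNMT3B and siDNMT3L, and those groups overlapped. siNTC-2 followed with 8.74 and 8.79, and the depletions of its side ran from siD1+3A+3B (8.83 and 8.96) to siD1+3B (9.26 and 9.40). As for RPPH1, every siNTC-2-side array lay above every siNTC-1-side array. The duplicates were wider than those of RPPH1, with an SD of up to 0.24 in siDNMT3L (n = 2). The 3 VTRNA1 genes are related copies, and how far the probes of one also bind RNA of another was not tested.

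**Figure D1:**
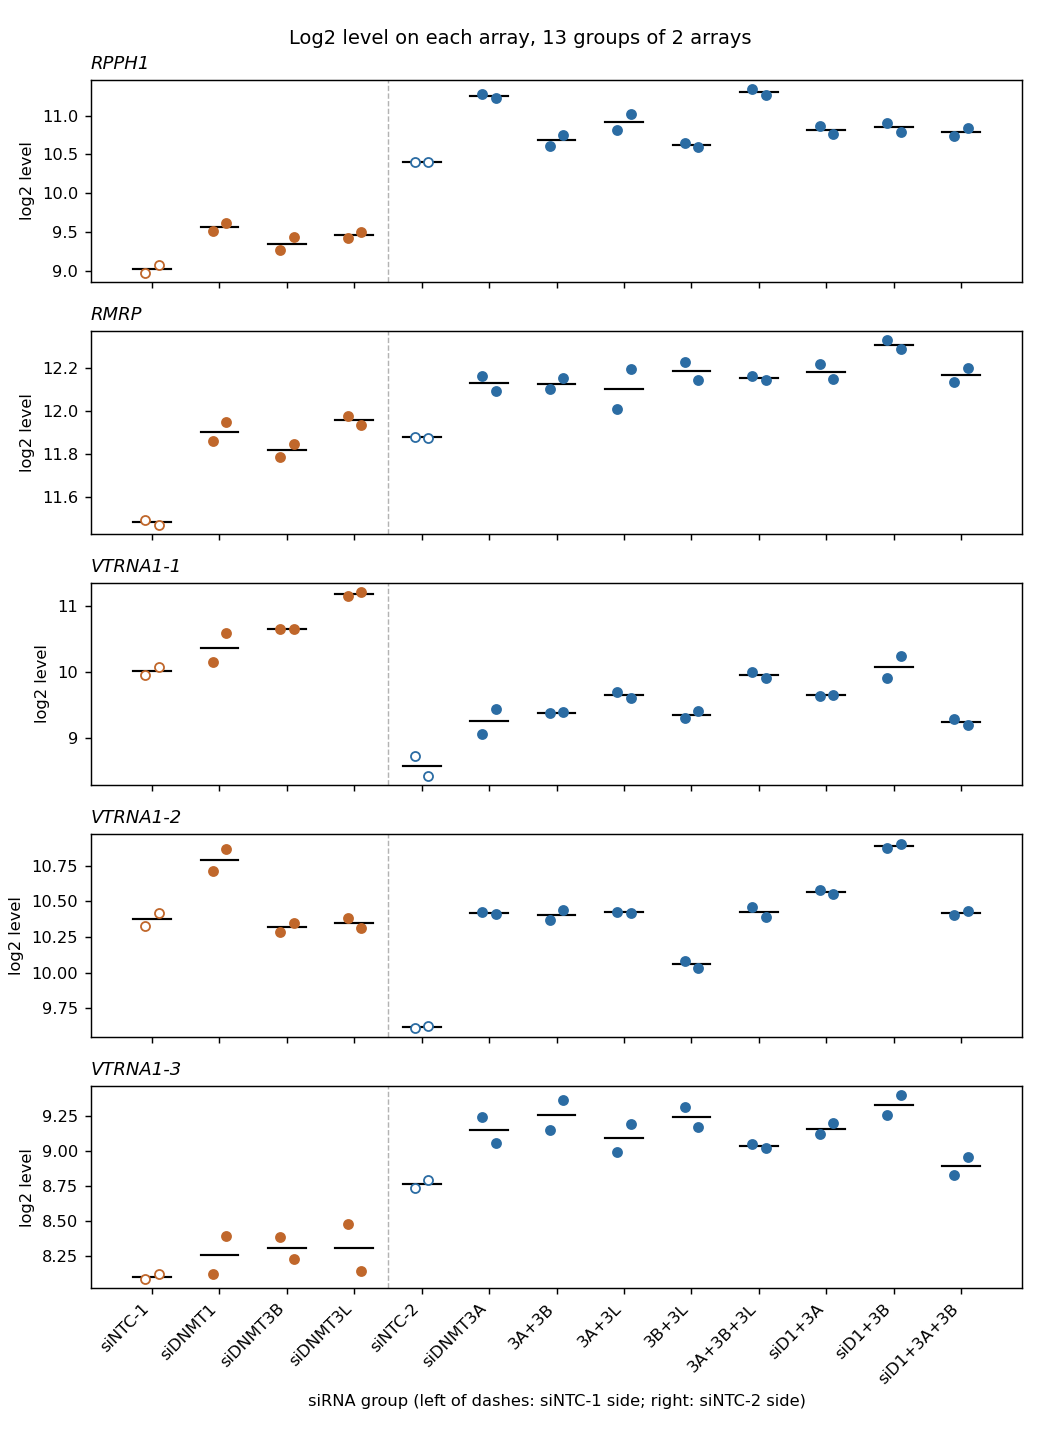
The log2 level of each RNA gene (vertical axis, one panel a gene) on each array, by siRNA group (horizontal axis). Points are the 2 arrays of a group, open for control groups, and bars are group means; siNTC-1-side groups stand left of the dashed line and siNTC-2-side groups right of it. For RPPH1 and VTRNA1-3 no array on the left reaches any on the right, and VTRNA1-1 is highest in siDNMT3L (11.15 and 11.21), where the gene was chosen.

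The control groups themselves differed in all 5 genes. siNTC-2 minus siNTC-1 was 1.38 ± 0.08 (SE; adjusted p = 2.14e-10) for RPPH1, 0.39 ± 0.06 (adjusted p = 2.67e-05) for RMRP and 0.67 ± 0.11 (adjusted p = 0.000107) for VTRNA1-3. It was -1.44 ± 0.14 (adjusted p = 1.14e-07) for VTRNA1-1 and -0.76 ± 0.06 (adjusted p = 5.05e-09) for VTRNA1-2. RPPH1 was thus 2.60-fold higher and VTRNA1-1 2.71-fold lower in siNTC-2, with no overlap of the arrays. These are limma values with Benjamini-Hochberg adjustment over 18417 genes, as are all adjusted p-values here, and 44.7% of all genes were called in this comparison at 0.05. A difference of a depletion from control therefore depends on which control group it is read against.

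Against the mean of both control groups, 44 of the 53 tested pairs of gene and depletion were called, 42 higher and 2 lower, beside 29.1% of all gene-by-depletion pairs called, 15% higher and 14.1% lower. Both lower calls were RPPH1, in siDNMT3B (-0.36 ± 0.07, adjusted p = 0.000375) and siDNMT3L (-0.25 ± 0.07, adjusted p = 0.00777), and both had the opposite sign against siNTC-1. Against siNTC-1 alone 40 were called, 33 higher and 7 lower (36.5% of all pairs called). Against siNTC-2 alone 47 were called, 41 higher and 6 lower (25.5% of all pairs called).

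Read against the control group of the same side, all 44 called pairs were higher, and 44 of 53 stands beside 19.4% of all pairs called, 9.37% higher and 10.1% lower. On the siNTC-1 side 8 of 14 were called higher (10.1% of all pairs) and on the siNTC-2 side 36 of 39 (9.09%). By gene, the calls were 9 of 10 for RPPH1, 11 of 11 for RMRP, 9 of 10 for VTRNA1-1, 9 of 11 for VTRNA1-2 and 6 of 11 for VTRNA1-3. In 51 of the 53 pairs both depletion arrays lay above both arrays of the same-side control, beside 26.5% of all pairs above and 29.5% below; the 2 exceptions were VTRNA1-2 in siDNMT3B and siDNMT3L. The 3 comparisons on the siNTC-1 side share both siNTC-1 arrays and the 8 on the siNTC-2 side share both siNTC-2 arrays, so a low value of a control group enters all of them.

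For RPPH1 the largest tested difference from the same-side control was 0.90 ± 0.08 in 3A+3B+3L (1.87-fold, adjusted p = 1.51e-07). It was 0.55 ± 0.08 in siDNMT1 (adjusted p = 7.81e-05), 0.52 ± 0.08 in 3A+3L (adjusted p = 9.28e-05), 0.45 ± 0.08 in siD1+3B (adjusted p = 0.000324) and 0.44 ± 0.08 in siDNMT3L (adjusted p = 0.000683). In siDNMT3A, where the gene was chosen, it was 0.85 ± 0.08, given without a test. Smaller rises were 0.42 in siD1+3A, 0.39 in siD1+3A+3B, 0.33 in siDNMT3B and 0.28 in 3A+3B, and the 3B+3L difference of 0.22 ± 0.08 had an adjusted p of 0.0892, which was under the threshold without the dimmest 40% of genes (0.048), with quantile normalization (0.0449) and with trend and robust priors (0.0277). The siDNMT3B call was lost without siNTC-1 replicate 1 (0.27, adjusted p = 0.0537) or siDNMT3B replicate 2 (0.24, adjusted p = 0.0836). The 3A+3B call was lost without siNTC-2 replicate 1 (0.28, adjusted p = 0.104), siNTC-2 replicate 2 (0.28, adjusted p = 0.103) or 3A+3B replicate 2 (0.21, adjusted p = 0.246). Fitted on the groups compared alone, siDNMT3B had an adjusted p of 0.0923 and 3A+3B one of 0.0678.

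RMRP was called higher than the same-side control in every depletion, by 0.22 to 0.47. Its largest differences were 0.47 ± 0.06 in siDNMT3L (1.39-fold, adjusted p = 1.98e-05), 0.43 ± 0.06 in siD1+3B (1.35-fold, adjusted p = 3.13e-05) and 0.42 ± 0.06 in siDNMT1 (1.34-fold, adjusted p = 6.45e-05). Calls that 1 array decided were siDNMT3A without its replicate 1 (0.22, adjusted p = 0.0825), 3A+3B without its replicate 2 (0.22, adjusted p = 0.0915) or siNTC-2 replicate 2 (0.25, adjusted p = 0.0575), and 3A+3L without its replicate 2 (0.13, adjusted p = 0.177) or siNTC-2 replicate 2 (0.22, adjusted p = 0.054). Fitted on the groups compared alone, 5 of the 11 calls were lost with differences as before: the adjusted p was 0.0519 in siDNMT3B, 0.0569 in 3A+3B, 0.0613 in siDNMT3A, 0.0623 in 3B+3L and 0.107 in 3A+3L.

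VTRNA1-1 had the largest tested difference of the vault RNAs from the same-side control, in siD1+3B. In siDNMT1, siD1+3A+3B and siDNMT3A the difference of VTRNA1-2 was larger (0.42, 0.80 and 0.80, beside 0.35, 0.67 and 0.68 for VTRNA1-1). Against siNTC-2, VTRNA1-1 was 1.5 ± 0.14 higher in siD1+3B (2.83-fold, adjusted p = 2.45e-07), 1.37 ± 0.14 in 3A+3B+3L (2.59-fold, adjusted p = 7.68e-07), 1.08 ± 0.14 in 3A+3L (adjusted p = 1.39e-05) and 1.07 ± 0.14 in siD1+3A (adjusted p = 1.56e-05). The other siNTC-2-side depletions ranged from 0.67 to 0.81 and were called. Against siNTC-1 it was 0.64 ± 0.14 higher in siDNMT3B (1.56-fold, adjusted p = 0.00205), while siDNMT1 gave 0.35 ± 0.14 with an adjusted p of 0.0782, and 0.57 (adjusted p = 0.0129) without siDNMT1 replicate 1. In siDNMT3L, where the gene was chosen, it was 1.16 ± 0.14, given without a test. Read against siNTC-1, VTRNA1-1 was lower by a called difference in 6 of the 8 siNTC-2-side depletions: siD1+3A+3B (-0.77), siDNMT3A (-0.76), 3B+3L (-0.66), 3A+3B (-0.63), siD1+3A (-0.37) and 3A+3L (-0.36), all ± 0.14. The other 2 were not called, with -0.067 in 3A+3B+3L (adjusted p = 0.734) and 0.061 in siD1+3B (adjusted p = 0.758).

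VTRNA1-2 rose over siNTC-2 in all 8 depletions of that side, from 0.44 ± 0.06 in 3B+3L (adjusted p = 7.27e-05) to 1.27 ± 0.06 in siD1+3B (2.41-fold, adjusted p = 2.48e-11), with 0.95 ± 0.06 in siD1+3A and 0.79 to 0.81 in the others. On the siNTC-1 side it rose in siDNMT1 (0.42 ± 0.06, adjusted p = 3.5e-05, but 0.0621 when fitted on the groups compared alone), and the differences were -0.05 ± 0.06 in siDNMT3B (adjusted p = 0.525) and -0.02 ± 0.06 in siDNMT3L (adjusted p = 0.811). The largest difference on the siNTC-1 side (siDNMT1) and the 2 largest on the siNTC-2 side (siD1+3B and siD1+3A) were in groups that received DNMT1 siRNA. The group siD1+3A+3B, which also did, stood at 0.80 ± 0.06. Same-side pairs that add DNMT1 siRNA had no limma call for VTRNA1-2. The difference was 0.15 ± 0.06 in siD1+3A minus siDNMT3A (adjusted p = 0.112, but 0.0425 with trend and robust priors and 0.0493 with array weights). It was 0.015 ± 0.06 in siD1+3A+3B minus 3A+3B (adjusted p = 0.935).

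VTRNA1-3 rose over siNTC-2 by 0.57 ± 0.11 in siD1+3B (1.48-fold, adjusted p = 0.00116), 0.49 ± 0.11 in 3A+3B (adjusted p = 0.00795), 0.48 ± 0.11 in 3B+3L (adjusted p = 0.0113) and 0.40 ± 0.11 in siD1+3A (adjusted p = 0.0168). It was also called in siDNMT3A (0.39, adjusted p = 0.0276) and 3A+3L (0.33, adjusted p = 0.0455), and not in siD1+3A+3B (0.13) or 3A+3B+3L (0.27). The siNTC-1-side differences were 0.16 to 0.21 ± 0.11, with adjusted p-values of 0.205 to 0.377. All of these calls but siD1+3B were lost when either siNTC-2 array was left out, except 3A+3B without siNTC-2 replicate 2: without siNTC-2 replicate 1 the adjusted p was 0.059 in 3A+3B, 0.0748 in 3B+3L, 0.0938 in siD1+3A, 0.136 in siDNMT3A and 0.178 in 3A+3L, and without siNTC-2 replicate 2 it was 0.0524 in 3B+3L, 0.0545 in siD1+3A, 0.0826 in siDNMT3A and 0.112 in 3A+3L. An array of the depletion decided them too: the adjusted p was 0.111 in siD1+3A without its replicate 2, 0.236 in siDNMT3A without replicate 1, 0.117 in 3A+3B without replicate 2, 0.305 in 3A+3L without replicate 2 and 0.115 in 3B+3L without replicate 1. The 3A+3L call was also lost when single arrays of some groups outside the comparison were left out.

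**Figure D2:**
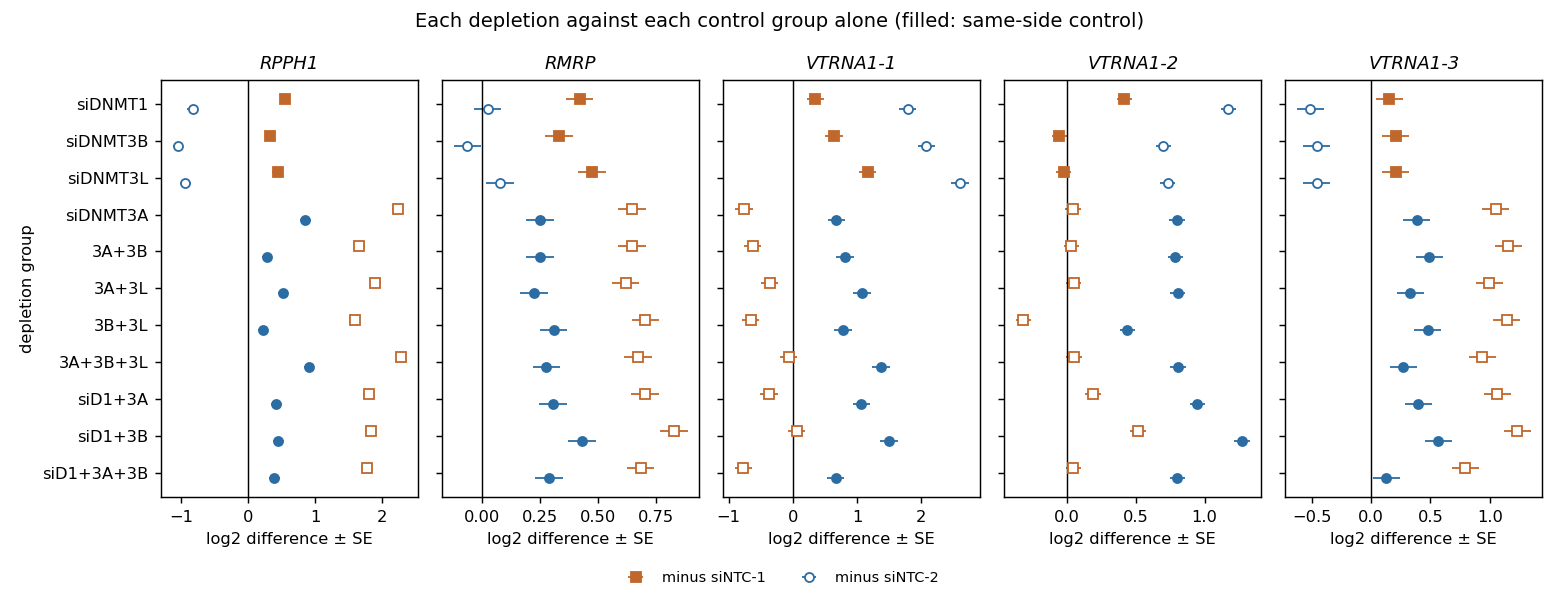
The log2 difference ± SE of each depletion (vertical axis) from siNTC-1 (squares) and from siNTC-2 (circles), one panel a gene; filled symbols use the control group of the same side. All filled symbols of RPPH1, RMRP, VTRNA1-1 and VTRNA1-3 lie right of 0, while the open symbols of each gene lie on both sides of 0. RPPH1 in siDNMT3A and VTRNA1-1 in siDNMT3L, by which these genes were chosen, are drawn like the others and carry no test.

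By depletion, called rises over the same-side control covered all 5 genes in siD1+3A (beside 12% of all genes higher), siD1+3B (11.7%), 3A+3B (6.04%) and 3A+3L (10.6%), and all 4 tested genes in siDNMT3A (8.44%). They covered 4 of 5 in 3B+3L (5.61%), siD1+3A+3B (7.74%) and 3A+3B+3L (10.5%). On the siNTC-1 side they covered 3 of 5 in siDNMT1 (9.26%), 3 of 5 in siDNMT3B (11.8%) and 2 of 4 in siDNMT3L (9.32%).

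Under the strictest reading, a call in the same direction against each control group alone, 24 of 53 pairs remained and all were higher, beside 7.9% of all pairs, 4.22% higher and 3.68% lower. RMRP accounted for 8 of its 11, RPPH1 for 6 of its 10 and VTRNA1-3 for 6 of its 11, all on the siNTC-2 side, where the higher of both control groups for these genes also lies. VTRNA1-2 passed in siDNMT1, siD1+3A and siD1+3B, and VTRNA1-1 in siDNMT3B. siDNMT1 and siD1+3B thus held VTRNA1-2 above both control groups from different sides: in siDNMT1 by 0.42 over siNTC-1 and 1.17 over siNTC-2, and in siD1+3B by 0.52 over siNTC-1 and 1.27 over siNTC-2. In 29 of the 53 pairs both depletion arrays lay above all 4 control arrays, beside 12.6% of all pairs above and 13.7% below. The strict count was 17 without siNTC-2 replicate 2 and 18 when each comparison was fitted on its own groups alone.

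Pairs of depletions that differ by 1 siRNA use no control array. Over 16 such pairs 36 of 75 tested differences were called, 26 higher and 10 lower with the added siRNA, beside 19.8% of all differences, 10.8% higher and 8.98% lower. In 7 of those pairs the groups lie on different sides. In the 9 pairs within the siNTC-2 side 8 of 42 were called, 5 higher and 3 lower, beside 6.11% of all differences, 2.5% higher and 3.61% lower.

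Of these 8, 5 came with DNMT3L or DNMT3A siRNA added to form the triple 3A+3B+3L. RPPH1 was 0.62 ± 0.08 higher in 3A+3B+3L than in 3A+3B (adjusted p = 4.74e-05), and VTRNA1-1 was 0.56 ± 0.14 higher (adjusted p = 0.0122), where 9.42% of genes were called. The VTRNA1-1 call was lost without any 1 of the 4 arrays compared, with 0.52 to 0.61 and adjusted p-values of 0.0507 to 0.102. Against 3B+3L, the triple was higher by 0.69 ± 0.08 in RPPH1 (adjusted p = 6.48e-06), 0.59 ± 0.14 in VTRNA1-1 (adjusted p = 0.00417) and 0.37 ± 0.06 in VTRNA1-2 (adjusted p = 0.000115), where 18.9% of genes were called. Against 3A+3L, RPPH1 differed by 0.39 ± 0.08 with an adjusted p of 0.0817, which was under the threshold under 4 alternatives: 0.035 without the dimmest 40% of genes, 0.0273 with quantile normalization, 0.0439 with array weights and 0.00527 with trend and robust priors.

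The other 3 calls came with DNMT3A siRNA added to siD1+3B, and all 3 were vault RNAs. In siD1+3A+3B, VTRNA1-1 was lower by -0.83 ± 0.14 (adjusted p = 0.0024), VTRNA1-2 by -0.47 ± 0.06 (adjusted p = 0.000111) and VTRNA1-3 by -0.44 ± 0.11 (adjusted p = 0.0454), where 3.02% of genes were called. RPPH1 (-0.06 ± 0.08, adjusted p = 0.813) and RMRP (-0.14 ± 0.06, adjusted p = 0.251) had no call. Without siD1+3B replicate 2 the VTRNA1-1 difference was -0.67 (adjusted p = 0.0628) and the VTRNA1-3 difference -0.37 (adjusted p = 0.297). Fitted on those groups alone, all 3 calls were lost with differences as before (adjusted p = 0.119 for VTRNA1-1, 0.0939 for VTRNA1-2 and 0.153 for VTRNA1-3). The VTRNA1-3 call was also lost without any other array compared and when some arrays of other groups were left out.

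RPPH1 was lower in each pair in which an siRNA was added to siDNMT3A, where the gene was chosen: by -0.57 in 3A+3B, -0.43 in siD1+3A and -0.33 in 3A+3L, all ± 0.08 and without a test. The siRNA effects could be set against each other in 2 full designs with DNMT3A siRNA present throughout. None of 8 tested differences of effects was called by limma, with 2 at an unadjusted p under 0.05, beside 0.0543% of all genes called. For RPPH1, untested, the DNMT3L effect was 0.96 ± 0.11 larger and the DNMT1 effect 0.54 ± 0.11 larger with DNMT3B siRNA than without. The corresponding VTRNA1-1 values were 0.16 ± 0.19 (adjusted p = 0.823) and -0.53 ± 0.19 (adjusted p = 0.413).

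**Figure D3:**
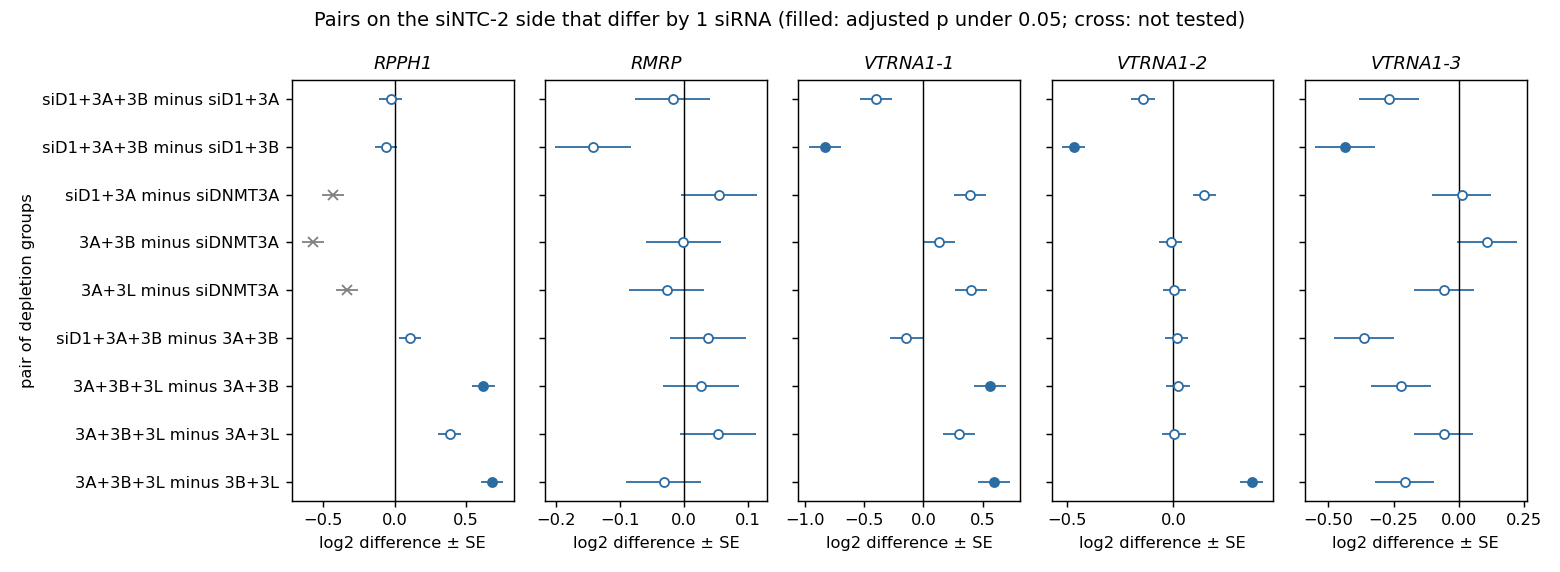
The log2 difference ± SE (horizontal axis) between depletions of the siNTC-2 side that differ by 1 siRNA (vertical axis), one panel a gene. Filled circles have an adjusted p under 0.05 and crosses were not tested; filled circles are seen for RPPH1 (2), VTRNA1-1 (3), VTRNA1-2 (2) and VTRNA1-3 (1), and for RMRP there are none.

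Over the 13 group means, Pearson's r was 0.92 between RPPH1 and VTRNA1-3, 0.84 between RPPH1 and RMRP, 0.87 between RMRP and VTRNA1-3 and -0.59 between RPPH1 and VTRNA1-1. Within the 9 groups of the siNTC-2 side all 10 pairs of genes had a positive r, from 0.22 (RPPH1 and VTRNA1-3) to 0.87 (RMRP and VTRNA1-2), and RPPH1 and VTRNA1-1 had 0.58. The control group siNTC-2 is among these 9 groups and was the lowest of them for every member. How r would read over the depletions alone was not tested. Both genes of a pair are read from the same arrays, and these values are descriptions without a p.

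The genes whose 13 group means most resembled those of each member were LIMD1 (0.98), ENTREP3 (0.97) and SLC4A11 (0.97) for RPPH1, and MLEC (0.96), ERBB3 (0.95) and LRCH1 (0.95) for RMRP. For VTRNA1-1 they were TOPORS (0.98), the small nucleolar RNA SNORD82 (0.97) and DEPDC1B (0.96). For VTRNA1-2 they were RPS21 (0.91), SNORD42A (0.91) and PFDN5 (0.90), and for VTRNA1-3 RPS27 (0.97), MRPS33 (0.97) and L3HYPDH (0.97). Over the 9 groups of the siNTC-2 side alone, these r values ran from 0.70 (MRPS33 with VTRNA1-3) to 0.97 (PFDN5 with VTRNA1-2). SLC4A11 with RPPH1 had 0.72 there and MLEC with RMRP 0.75. RPS21 and RPS27 encode proteins of the small ribosomal subunit. The mean of TOPORS, for example, ran from 8.23 in siNTC-2 to 9.07 in siDNMT3L, the groups in which VTRNA1-1 was also lowest and highest. As TOPORS was picked by its r over these means, shared extremes follow from the picking, and VTRNA1-1 itself was chosen in siDNMT3L. The 9 means of the siNTC-2 side are likewise part of the 13 used for picking.

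The protein-coding neighbours of the RNA genes were read in the same way. Over 12 neighbours and 11 depletions, 13 of 132 differences from the same-side control were called higher and 4 lower (9.85% and 3.03%, beside 9.37% and 10.1% of all genes). PARP2, whose start lies beside RPPH1, ranged from -0.11 to 0.14 over the 11 depletions, with none called by limma and 2 at an unadjusted p under 0.05. CCDC107, beside RMRP, ranged from -0.11 to 0.26, with none called and 2 at an unadjusted p under 0.05. Of the genes on the lower-coordinate side of the vault cluster, HARS2 (mitochondrial histidyl-tRNA synthetase) was called higher in 9 of 11 depletions, by up to 0.32 in siDNMT3B, and ZMAT2 (a zinc finger protein of the spliceosome) in 4, by up to 0.23 in siD1+3B. Of these rises, 7 of HARS2 and 0 of ZMAT2 were also called against each control group alone. In that reading the neighbours had 7 higher and 1 lower of 132 (5.3% and 0.758%, beside 4.22% and 3.68% over all genes). On the higher-coordinate side PCDHA1 had no call against the same-side control and PCDHA2 was called lower in 2 depletions.

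**Figure D4:**
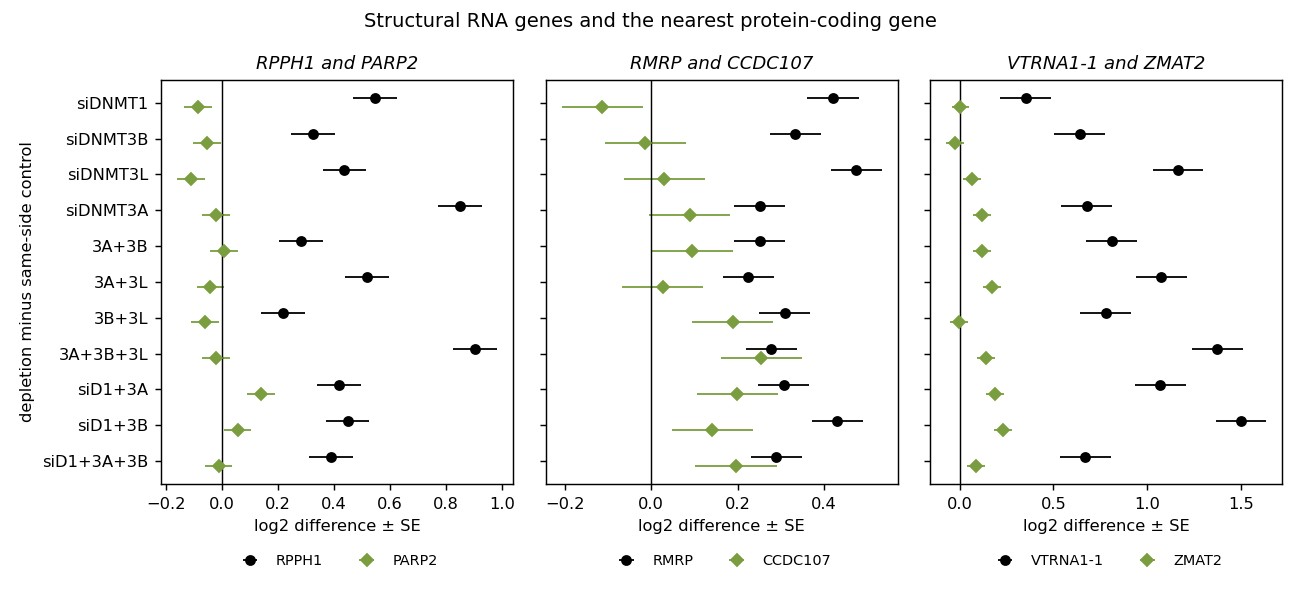
The log2 difference ± SE from the same-side control (horizontal axis) in each depletion (vertical axis) for RPPH1, RMRP and VTRNA1-1 (circles) and a protein-coding neighbour of each (diamonds). PARP2 stays between -0.11 and 0.14, CCDC107 between -0.11 and 0.26 and ZMAT2 between -0.02 and 0.23, and every circle lies right of 0. The circles of RPPH1 in siDNMT3A and VTRNA1-1 in siDNMT3L are the values by which these genes were chosen, while the neighbours were not chosen by value. HARS2, the other neighbour on the lower-coordinate side of VTRNA1-1, is not drawn.

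The machinery that makes and binds these RNAs was read from lists drawn up by name, as counts of gene-by-depletion differences from the same-side control, beside 9.37% higher and 10.1% lower over all genes. Of 18 RNA polymerase III subunits 17 were measured, and 32 of 187 differences were called higher and 54 lower (17.1% and 28.9%; median -0.08, beside -0.01 over all genes). POLR3G, a subunit of the form of the enzyme found in stem cells, rose in 9 of 11 depletions, from 0.18 ± 0.04 in 3A+3B (adjusted p = 0.0124) to 0.71 ± 0.04 in siDNMT1 (adjusted p = 4.39e-09), and in all 9 it was called higher against each control group alone. Its counterpart POLR3GL ranged from -0.25 to 0.08, with none called and 0 at an unadjusted p under 0.05. The subunit genes POLR1D, POLR3F, CRCP, POLR3K and POLR3C fell in 9, 8, 8, 7 and 7 depletions, POLR3K by up to -0.59 in 3B+3L. Of these falls, 6, 6, 7, 7 and 5 were also called against each control group alone. In that reading the whole list had 16 higher and 35 lower of 187 (8.56% and 18.7%, beside 4.22% and 3.68% over all genes). POLR1C rose in 8, by up to 0.64 in siD1+3A, and fell in 1, and POLR2L rose in 6, by up to 0.55 in siD1+3B, and fell in 1; the 6 rises of POLR2L were also called against each control group alone, and none of POLR1C were.

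Of 19 initiation factors and regulators 18 were measured, with 37 of 198 differences higher and 28 lower (18.7% and 14.1%). GTF3C1, the largest subunit of TFIIIC, rose in 7 depletions and SNAPC3, a subunit of the complex that binds the promoters of RPPH1 and RMRP, fell in 9 and rose in 1. MAF1, the repressor of RNA polymerase III, rose in 2. Of these, 1 rise of GTF3C1, 1 fall of SNAPC3 and 0 rises of MAF1 were also called against each control group alone. Of 11 proteins of RNase P and MRP 10 were measured, with 15 of 110 differences higher and 28 lower (13.6% and 25.5%). RPP40 fell in 10 of 11 depletions, by up to -0.34 ± 0.05 in 3A+3B+3L (adjusted p = 0.000107), and RPP38 fell in 9, while POP4 rose in 8, by up to 0.66 ± 0.05 in siD1+3B (adjusted p = 5.02e-08). In the calls made against each control group alone, this list had 0 higher and 15 lower of 110 (0% and 13.6%, beside 4.22% and 3.68% over all genes), where RPPH1 and RMRP, the RNA subunits, had 6 of 10 and 8 of 11 higher.

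Of 7 proteins of the 7SK particle and its kinase 6 were measured, with 7 of 66 differences higher, all HEXIM1, an inhibitor of that kinase, and 16 lower, of which 7 each were the cyclins CCNT1 and CCNT2. Of these, 2 rises of HEXIM1, 7 falls of CCNT1 and 6 falls of CCNT2 were also called against each control group alone. In that reading the list had 2 higher and 14 lower of 66 (3.03% and 21.2%, beside 4.22% and 3.68% over all genes). Of the vault proteins MVP and PARP4 were measured, with 2 of 22 higher and 2 lower, all PARP4. Of 4 proteins that bind or modify such RNAs, 10 of 44 differences were higher and 2 lower: SRSF2 rose in 5 and the RNA methyltransferase NSUN2, which methylates vault RNA, rose in 3 and fell in 2. SSB (the La protein) had no call and 3 at an unadjusted p under 0.05. In the calls made against each control group alone, these 4 proteins had 0 of 44 higher and 1 lower, and the vault proteins had 0 of 22 in either direction. Of 32 other RNA polymerase III transcripts RNY1 (Y RNA) and RNU6ATAC (a minor spliceosomal RNA) were measured. RNU6ATAC rose in 3 of 11 depletions, by 0.31 ± 0.08 in siD1+3B and by 0.25 ± 0.08 both in 3A+3B+3L and in siD1+3A, and RNY1 in none, with 1 at an unadjusted p under 0.05. Of the RNU6ATAC rises, 0 were also called against each control group alone. For this gene siNTC-2 minus siNTC-1 was -0.45 ± 0.08 (adjusted p = 0.000197).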

How the data were processed

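The authors deposited 1 table of log2 levels for the 26 arrays, prepared from 250 ng of total RNA each; Partek is named in the submitters' processing notes, with role and version not given in the sources used here, nor the normalization. The values ran from 3.04 to 14.9 with array medians of 6.28 to 6.33 and were used as deposited; with such medians, differences are relative to the bulk of rows. Of 33297 rows, 19460 carried 1 symbol, 1754 several and 12083 none; 19429 matched RefSeq (GRCh38.p14). The highest-mean row of each symbol gave 18417 genes, and each member had 1 row. limma 3.58.1 in R 4.3.3 (lmFit, eBayes) fitted 13 group means (13 residual degrees of freedom), with Benjamini-Hochberg adjustment over all genes within a comparison and a threshold of 0.05. The number of arrays limits the precision. The script was tested on simulated data. Text names all members, up to 3 genes a list by smallest adjusted p with others that describe it, the neighbours, and 3 genes most like each member. Members, lists, sides and tests were chosen with earlier results of these data known. Alternatives were to drop the dimmest 40% of genes, to quantile-normalize between arrays, trend and robust priors, array weights, a replicate block, all rows, only the groups compared, other controls and leaving out each array.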

Additional observations from a re-analysis of the deposited data

How the results depend on the processing

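Among values called in at least 1 of both readings, directions turned, relative to the mean of both control groups, when another control was used. They turned under no other alternative. With siNTC-1 alone, and likewise with the same-side control, RPPH1 was 0.55 in siDNMT1, 0.33 in siDNMT3B and 0.44 in siDNMT3L, and VTRNA1-2 was -0.054 in siDNMT3B and -0.024 in siDNMT3L. VTRNA1-3 turned in the same groups without a call in either reading. Against the mean of both control groups it was -0.18 in siDNMT1, -0.13 in siDNMT3B and -0.13 in siDNMT3L. Against siNTC-1 it was 0.16, 0.21 and 0.21. With siNTC-1 alone, VTRNA1-1 was -0.37 in siD1+3A, -0.63 in 3A+3B, -0.36 in 3A+3L, -0.66 in 3B+3L and -0.067 in 3A+3B+3L, and VTRNA1-2 was -0.32 in 3B+3L. With siNTC-2 alone, VTRNA1-1 was 0.67 in siD1+3A+3B and 0.68 in siDNMT3A, also as the same-side value, and RMRP was -0.0605 in siDNMT3B. Over 161 results, 34 single values gained a call, 113 lost one and 21 turned with a call in at least 1 reading. The other 5304 kept their side of the threshold. Turns without a call in either reading, as for VTRNA1-3, were counted among these 5304. Fitting only the groups compared gave 5 calls in same-side pairs (8 in full, 12 with array weights), 37 against the same-side control, 18 against each control group alone and 233 over the lists; the 3 same-side pair calls it lost were the vault RNAs in siD1+3A+3B minus siD1+3B. Leaving out 1 array gave 41 to 44 calls against the mean of both control groups, 37 to 45 against the same-side control, 17 to 25 against each control group alone, 34 to 39 over all pairs, 6 to 10 over same-side pairs, 5 between the control groups, 0 differences of effects and 297 to 346 over the lists (342 in full). Replicate numbers did not pair the arrays: deviations of same-numbered arrays correlated from -0.26 to 0.19 over 78 pairs of groups, and the replicate block gave 43 calls against the mean of both control groups and 7 in same-side pairs. Other rows of a member's symbol could not be tried, as each had 1 row.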

Other observations

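The control groups also differed in genes of the machinery. Between siNTC-2 and siNTC-1, POLR3D (0.97 ± 0.06, SE, adjusted p = 2.22e-10) and RNY1 (1.49 ± 0.28, adjusted p = 0.000261) were higher in siNTC-2. GTF3C6 (-1.20 ± 0.07, adjusted p = 2.29e-10), HEXIM1 (-1.08 ± 0.06, adjusted p = 3.17e-10), POLR1C (-1.02 ± 0.05, adjusted p = 9.32e-11), BRF2 (-0.77 ± 0.09, adjusted p = 8.8e-07), NSUN2 (-0.73 ± 0.05, adjusted p = 1.2e-09), RPP14 (-0.69 ± 0.07, adjusted p = 1.59e-07) and POP4 (-0.60 ± 0.05, adjusted p = 5.06e-08) were lower. By list, 5 of 17 polymerase subunits were higher and 2 lower, 5 of 18 factors higher and 9 lower, and 2 of 10 RNase P and MRP proteins higher and 5 lower, beside 44.7% of all genes called in either direction.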
